A study of Mus musculus with 7 samples.

Results

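The open-chromatin regions (OCRs) around 8 mouse genes were described in 7 bulk ATAC-seq libraries of HPC7, a hematopoietic progenitor cell line. The genes were the alpha-like globins Hba-x, Hba-a1 and Hba-a2, the beta-like globins Hbb-y, Hbb-bh1, Hbb-bs and Hbb-bt, and Bcl11a. Every deposited peak that overlapped a gene body or the 60 kb on either side of it (mm10, genes of GENCODE M21) was taken, which gave 3 windows. They were chr11:32216400-32357298 for the alpha-globin cluster, chr7:103752524-103913216 for the beta-globin cluster and chr11:24018056-24234123 for Bcl11a. Peaks of the 7 lists that overlapped by at least 1 bp were merged to 1 OCR. The windows held 76 of the 144931 merged OCRs, 25 at alpha-globin, 7 at beta-globin and 44 at Bcl11a.

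In ATAC-seq the Tn5 transposase inserts adapters into accessible DNA of isolated nuclei, and MACS2 lists the places where reads pile up. All 7 libraries carry the same labels, which give no genotype or treatment, and the cells were grown with stem cell factor. HPC7 is a single immortalised line, so the libraries, HPC7-1, HPC7-2 and HPC7-4 to HPC7-8, are culture batches of 1 cell line and not of animals. The names of the peaks begin with VD in some lists and with EtOH in the others, which the labels do not explain, and every mean and test below takes the 7 libraries as replicates of 1 condition. Fold enrichment, called intensity here, is the number of reads at the summit divided by the background of the library, each with 1 read added. Where a library had several peaks in 1 OCR, the most intense was taken. A percentile is the share of a library's own peaks with a lower intensity, so it does not depend on the scale of the library. It does vary with the length of the list. Over all OCRs found in all 7 libraries, the median percentile was 58.5 in HPC7-6, which had the fewest peaks, and 74.6 in HPC7-1, which had the most. The lists held between 84593 and 132852 peaks, the background was between 4.44 and 20.4 reads, and the lowest listed intensity was between 1.68 and 2.44, which was between 12 and 35 reads at the summit. A summit under that level is not in a list.

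Globin genes lie in clusters and are used in order of development. Hba-x (zeta), Hbb-y and Hbb-bh1 serve the embryo, and Hba-a1, Hba-a2, Hbb-bs and Hbb-bt serve adult red cells. Both clusters are driven by distant enhancers: the beta cluster by a locus control region, a row of DNase I hypersensitive sites (HS) upstream of Hbb-y, and the alpha cluster by elements R1 to R4 and Rm, which lie mostly in introns of the neighbouring gene Nprl3. Bcl11a encodes a zinc finger repressor of the embryonic and fetal globin genes, is also needed by lymphoid cells and stem cells, and has erythroid enhancers in a long intron.

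The sequences below are those on which the results turn. They are 240 bases around the median summit on the plus strand of GRCm38, in which capitals mark the protein-binding sites that RefSeq annotates, or matches to the motifs listed further on where RefSeq annotates no such site. At 5'HS2 of the beta-globin control region, chr7:103860997-103861236, the capitals are a GATA-1 site and the overlapping tandem NF-E2 and Bach1 sites.
5'HS2: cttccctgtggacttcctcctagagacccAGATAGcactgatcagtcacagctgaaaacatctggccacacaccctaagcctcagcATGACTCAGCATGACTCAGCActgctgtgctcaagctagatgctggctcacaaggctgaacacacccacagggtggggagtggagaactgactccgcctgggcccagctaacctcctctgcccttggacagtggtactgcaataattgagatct
At 3'HS1, chr7:103793006-103793245, on the other side of the beta cluster, the capitals are the core CTCF site.
3'HS1: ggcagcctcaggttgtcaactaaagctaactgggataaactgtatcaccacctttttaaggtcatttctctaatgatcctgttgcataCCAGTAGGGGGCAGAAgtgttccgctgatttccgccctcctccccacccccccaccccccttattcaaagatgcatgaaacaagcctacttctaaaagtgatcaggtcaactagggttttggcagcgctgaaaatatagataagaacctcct
At R2, chr11:32250965-32251204, the capitals are GATA1, AP1/NF-E2 and KLF3 sites, of which some overlap. At R1, chr11:32245679-32245918, and Rm, chr11:32265179-32265418, they are motif matches.
R2: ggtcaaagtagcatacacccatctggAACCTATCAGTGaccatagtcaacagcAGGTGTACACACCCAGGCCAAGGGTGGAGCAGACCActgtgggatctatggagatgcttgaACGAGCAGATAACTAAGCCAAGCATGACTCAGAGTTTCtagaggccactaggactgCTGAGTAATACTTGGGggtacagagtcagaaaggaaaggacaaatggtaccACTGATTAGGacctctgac
R1: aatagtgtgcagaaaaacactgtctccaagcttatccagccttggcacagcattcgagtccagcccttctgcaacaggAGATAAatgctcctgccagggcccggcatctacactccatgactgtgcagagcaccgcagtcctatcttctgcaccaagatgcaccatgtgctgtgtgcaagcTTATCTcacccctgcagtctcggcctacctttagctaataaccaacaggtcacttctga
Rm: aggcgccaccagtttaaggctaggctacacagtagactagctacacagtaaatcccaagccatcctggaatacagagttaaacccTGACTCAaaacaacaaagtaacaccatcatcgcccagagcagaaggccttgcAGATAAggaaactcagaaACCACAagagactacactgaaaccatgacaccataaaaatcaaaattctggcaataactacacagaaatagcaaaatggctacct
In the intron of Bcl11a, OCRs 58.3 kb (chr11:24136188-24136427) and 61.7 kb (chr11:24139589-24139828) from the start are shown, the second with no match to a listed motif.
Bcl11a 58.3 kb: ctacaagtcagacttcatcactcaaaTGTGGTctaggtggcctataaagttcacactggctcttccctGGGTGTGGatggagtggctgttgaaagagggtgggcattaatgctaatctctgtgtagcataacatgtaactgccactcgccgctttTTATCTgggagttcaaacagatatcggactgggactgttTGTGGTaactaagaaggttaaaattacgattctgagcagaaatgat
Bcl11a 61.7 kb: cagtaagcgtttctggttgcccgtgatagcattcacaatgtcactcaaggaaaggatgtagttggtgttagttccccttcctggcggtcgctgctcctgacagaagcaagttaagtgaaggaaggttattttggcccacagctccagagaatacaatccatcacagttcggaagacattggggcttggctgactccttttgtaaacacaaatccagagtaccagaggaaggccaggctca
For comparison with these, the RefSeq promoter of Hbb-bs (GRCm38.p6, chr7:103827879-103828178, minus strand, 250 bases before to 50 after the start) is shown, since it was the only one of 7 matched member promoters with matches. Hbb-bh1 has no entry in the promoter table.
Hbb-bs promoter: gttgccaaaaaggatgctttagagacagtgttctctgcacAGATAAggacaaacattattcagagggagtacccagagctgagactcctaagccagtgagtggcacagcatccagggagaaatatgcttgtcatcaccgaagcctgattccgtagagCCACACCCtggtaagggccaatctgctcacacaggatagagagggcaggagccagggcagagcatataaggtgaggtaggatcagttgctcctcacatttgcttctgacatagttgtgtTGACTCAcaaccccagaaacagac

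At the promoters of the 8 genes, a peak lay within 1 kb of a transcript start of Bcl11a in all 7 libraries and of no globin gene in any library. Of 21938 protein-coding genes, 55.9% had such a peak in all 7 libraries and 38.2% in none. Only 1 member had an OCR at its promoter, so no pair of members could be compared in intensity. Peaks nearest to the globin genes were 5.06 kb upstream of Hba-x, 7.90 kb upstream of Hbb-y and 18.0 kb upstream of Hbb-bh1, all in 7 libraries. Downstream of the starts of Hbb-bt, Hbb-bs and Hba-a1 the nearest summits, at 4.82 kb, 18.9 kb and 2.61 kb, were each in 1 library, and the nearest to Hba-a2, at 3.58 kb, was in 7. With 3 kb in place of 1 kb, Hba-a1 was counted as well, through the OCR at the start of Hbq1b, which lies within 3 kb of the start of a shorter annotated transcript of Hba-a1 and not of the gene's own start.

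Copies of the globin genes are nearly identical in part, and a read that fits equally well in several places cannot be assigned to 1 of them. Of the 50-base sequences within 1 kb of the start, 30.9% at Hba-a1 and 25.4% at Hba-a2 occurred once in the genome, 59.2% at Hbb-bt and 66% at Hbb-bs. By the methods of the study the reads were paired and longer than 50 bases, so these shares are not the share of read pairs that could be placed. The RefSeq promoters of Hba-a1 and Hba-a2 were 98.0% identical, and those of Hbb-bt and Hbb-bs 71.3%. At Hba-x the share that occurred once was 97.8%, and at Hbb-y, Hbb-bh1 and Bcl11a 100%, so that the lack of peaks at the embryonic genes was measured on sequence that is unique. At the adult genes the part of repeated sequence in the lack of peaks was not tested, and how reads with several places were handled is not given in the sources used here.

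Over the beta-globin window, 4 of the 7 OCRs were found in all 7 libraries, or 57.1%, against 46.2% of all merged OCRs. They were 5'HS2, 3'HS1, HS-60.7 and HS-62.5, each over a DNase I site that RefSeq annotates under that name. The OCR at 5'HS2, chr7:103860863-103861376, lay 7.90 kb upstream of Hbb-y in intergenic DNA, and it was the most intense of the 4. Its lowest intensity was 13.6 in HPC7-6, its median 18.4 and its highest 27.8 in HPC7-8, with a mean of 19.3 ± 5.07 (SD, n = 7), from between 75 and 392 reads at the summit. In percentiles of the library this was 70.3 at the lowest, 77.2 at the median and 83.3 at the highest. The median summit was 15 bp from the tandem NF-E2 sites and 86 bp from the GATA-1 site printed above. The summits of the 7 libraries lay within 53 bp of each other.

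The remaining 3 shared OCRs of the window were less intense. 3'HS1, chr7:103792887-103793360, had an intensity of 4.93 ± 0.917 (SD, n = 7; lowest 3.98, median 4.70, highest 6.26) and a median percentile of 37.5. HS-62.5, chr7:103913026-103913423, at the edge of the window, had 4.82 ± 1.08 (lowest 3.70, median 4.52, highest 6.55) and a median percentile of 36.6, and HS-60.7, chr7:103910022-103910472, had 4.36 ± 0.956 (lowest 3.2, median 4.12, highest 6.12) and 32.8. 3'HS1 and HS-62.5 are known as sites bound by CTCF, a protein that anchors chromatin loops. The median summits were 17 bp from the annotated CTCF site at 3'HS1 and 3 bp from that at HS-62.5. In each library 5'HS2 was higher than all 3, by 1.95 ± 0.24 on the log2 scale against 3'HS1, 1.99 ± 0.28 against HS-62.5 and 2.13 ± 0.43 against HS-60.7 (mean ± SD, n = 7). The values of 3'HS1, HS-62.5 and HS-60.7 overlapped. At a -log10 q of at least 5, HS-60.7 was left in 6 libraries.

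**Figure D1:**
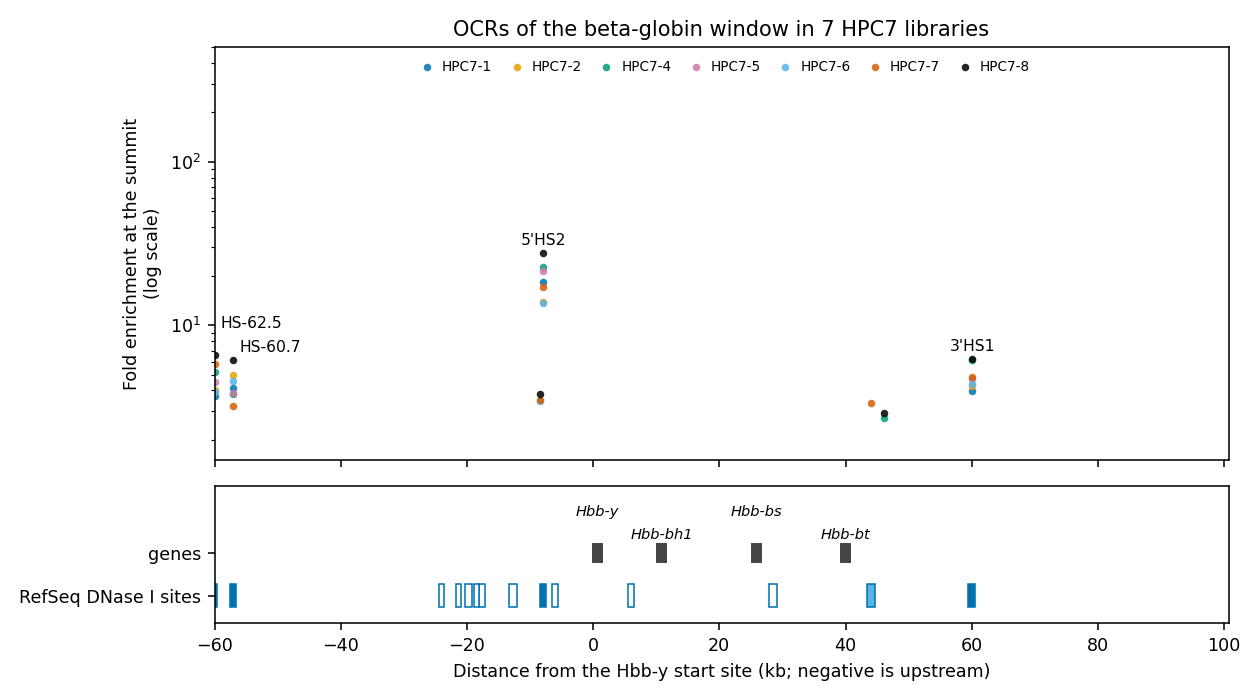
Intensity of every peak in the beta-globin window (upper panel, log scale, 1 point per library and OCR) by the distance of the median summit from the Hbb-y start in kb, with the genes and the RefSeq DNase I sites in the lower panel, filled where all 7 libraries had a peak, pale where some had and open where none had. The 7 points at 5'HS2 lie between 13.6 and 27.8, and no point lies over a globin gene.

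Of the 8 sites that RefSeq annotates in the locus control region, 5'HS1 to 5'HS6, 5'HS2 had a peak in all 7 libraries and the other 7 had none in any library. Of the 92 sites that RefSeq annotates outside the 3 windows, 19.6% had a peak in all 7, so that 1 of 8 is near this share. The 7 control region sites without a peak included 5'HS3 and 5'HS4, which with 5'HS2 are known for enhancer activity in red cells. At 5'HS3 93.2% of the 50-base sequences occurred once in the genome, and at the other 7 sites 100%. In the interval of 1 to 35 kb upstream of Hbb-y there were 2 OCRs, the second of which, chr7:103861540-103861884, was beside 5'HS2 in 3 libraries, with an intensity of 3.79 at most. HS-E1 and HS-3'beta1 lie between the genes and had no peak in any library, and HS-3'beta2, beyond the 3' end of Hbb-bt, had one in 1 library, at 3.35. An OCR at chr7:103806915-103807241 was found in 2 libraries, at 2.91 and less. From chr7:103809255 to chr7:103860862, a stretch of 51.6 kb that holds the 4 beta-like genes described here, no library had a peak. All 12 protein-coding genes with a start in the window, 7 of them olfactory receptor genes, lacked a promoter peak in every library, as did 38.2% of all protein-coding genes.

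At the alpha-globin cluster, 17 of 25 OCRs were found in all 7 libraries (68.0%, against 46.2% of all merged OCRs). Of the 12 annotated DNase I sites of this window, 7 had a peak in all 7 libraries, 1 in 6 libraries and 4 in none, whereas of the 14 sites of the beta window 4 had one in all 7, 1 in 1 library and 9 in none. The share outside the windows was 19.6%, as given above. RefSeq takes these sites from published experiments on various cells, so the shares describe the lists and not a property of the clusters.

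Of the elements R1 to R4 of the alpha cluster, R1 and R2 were open at a low level and R3 and R4 had no peak in any library. R1, chr11:32245581-32246019, 30.6 kb upstream of Hba-x, had an intensity of 5.27 ± 1.04 (SD, n = 7; lowest 3.86, median 5.47, highest 6.85) and a median percentile of 39.4. R2, chr11:32250864-32251347, 25.3 kb upstream and known as the strongest of the alpha enhancers in red cells, had 6.19 ± 1.76 (lowest 4.08, median 5.68, highest 8.33) and 44.2. R2 was above R1 in 6 of 7 libraries, by 0.21 ± 0.27 on the log2 scale. The median summit of R2 lay inside the annotated GATA1 site mFP-IIa, chr11:32251079-32251094, and 10 bp from the AP1/NF-E2 site beside it.

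Rm was more intense. The OCR that covers it, chr11:32264807-32265559, lay 11.1 kb upstream of Hba-x and had an intensity of 24.9 at the lowest, 34.8 at the median and 46.5 at the highest, with a mean of 36.2 ± 8.03 and a median percentile of 85.2. In all 7 libraries it was above R1, by 2.77 ± 0.21 on the log2 scale, and above R2, by 2.57 ± 0.20. The groups of values did not overlap, and the lowest value of Rm was 24.9 against 8.33 for the highest of R2. RefSeq places the site HS-12, whose ends it gives as approximate, just outside this OCR, at chr11:32264193-32264792, and no library had a peak in that interval. As at R3 (HS-21) and R4 (HS-8), no library had a peak at HS-15. The share of 50-base sequences found once was 100% at R3 and 98.3% at R4.

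Other OCRs upstream of the cluster lay in Nprl3 and its neighbours. The highest of the window was at the Nprl3 promoter, chr11:32266849-32268492 (HS-10), with an intensity of 73.1 ± 15.5 (lowest 47.6, median 67.6, highest 88.6) and a median percentile of 92.4. Nprl3 encodes a subunit of the GATOR1 complex that restrains mTORC1. The promoters of Mpg, a DNA glycosylase gene, and Rhbdf1, an inactive rhomboid protease gene, had 50.3 ± 8.57 and 34.8 ± 8.60. HS-38 had 19 ± 5.48, HS-45 9.01 ± 2.38, HS-39 8.28 ± 2.33 and HS-29 7.36 ± 2.27, and HS-14.5 was found in 6 libraries at 5.32 ± 1.64. The OCR nearest to Hba-x, chr11:32271131-32271633, is annotated with no gene and no DNase I site, and had 6.67 ± 1.19.

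Among the genes of the alpha cluster, the theta-globin genes alone had OCRs at their starts. Hbq1b, chr11:32286711-32287205, had an intensity of 9.48 ± 2.08 (lowest 6.10, median 9.94, highest 12.5) and Hbq1a, chr11:32299861-32300298, 6.68 ± 1.5 (lowest 5.01, median 6.36, highest 8.88). Hbq1b was higher in 7 of 7 libraries, by 0.50 ± 0.24 on the log2 scale. These genes are copies of each other, and 80.5% and 77.6% of the 50-base sequences in the OCRs occurred once, so that reads could be shared between them. Downstream, intergenic OCRs 45 kb and 48.4 kb from the Hba-x start had 9.09 ± 1.98 and 18.5 ± 4.37. At the edges of the window, an OCR in a UTR exon of Rhbdf1 (chr11:32216751-32217706) had 16.2 ± 4.76, one in its intron (chr11:32218755-32219007) was found in HPC7-1 alone at 2.39, and those at chr11:32342796-32343191 and chr11:32349611-32350057 were each found in 6 libraries at 4.20 ± 0.453 and 4.17 ± 1.05.

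**Figure D2:**
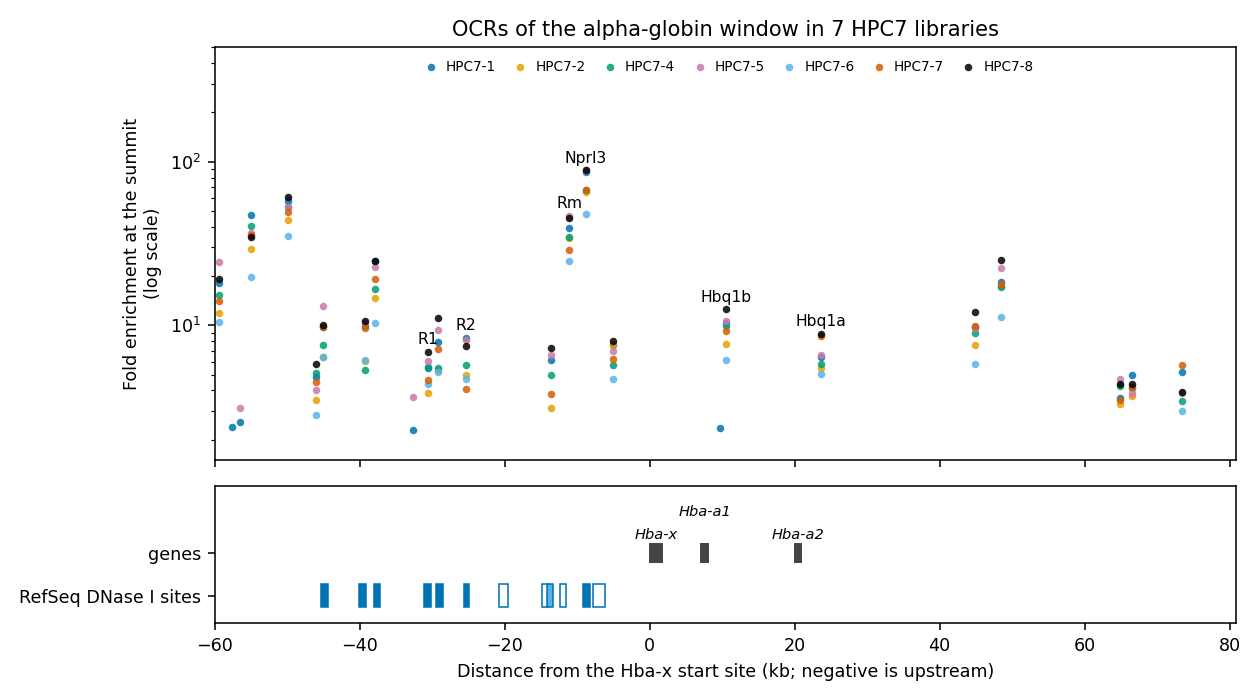
Intensity of every OCR in the alpha-globin window (upper panel, log scale, 1 point per library and OCR) by the distance of the median summit from the Hba-x start in kb. Genes and RefSeq DNase I sites are below, drawn as for the beta window. Rm and the Nprl3 promoter stand above R1 and R2 in every library, and the open boxes are sites with no peak.

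Bcl11a had an intense promoter OCR and a broad set of intronic OCRs. The promoter OCR, chr11:24075344-24082578, was 7235 bp long, as merged from 11 peaks of the 7 libraries. Its median summit lay 99 bp upstream of the gene's start at chr11:24078056. Its intensity was 59.6 at the lowest, 87.8 at the median and 120.3 at the highest, with a mean of 89.0 ± 20.4 (SD, n = 7) and a median percentile of 94.4. Of the 12272 protein-coding genes with a promoter peak in all 7 libraries, 55.9% had a lower median percentile. The same OCR covers the start of A830031A19Rik, a gene on the opposite strand, so the intensity belongs to both. The nearest genes by pattern over the 7 libraries, in root mean square difference of promoter percentile, were A830031A19Rik at 0 by sharing this OCR, Tnik at 0.369, Vps26b and Ncapd3, which share an OCR, at 0.402, and Alg2 at 0.466 percentile points.

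In the window 21 of 44 OCRs were found in all 7 libraries (47.7%, against 46.2% of all merged OCRs), 11 of them within the gene body, 4 upstream of the start and 6 beyond the 3' end. In the interval between 50 and 66 kb from the start, where erythroid enhancers of this gene are known to lie, 5 of 8 OCRs were in all 7 libraries. The highest was at 61.7 kb, chr11:24137391-24140252, with an intensity of 38.6 at the lowest, 69.3 at the median and 81.1 at the highest, a mean of 64.2 ± 14.1 and a median percentile of 91.8. It was merged from 13 peaks of the 7 libraries. The OCR at 58.3 kb, chr11:24135540-24137237, had 25.3, 33.1 and 42.6, a mean of 32.3 ± 6.46 and a median percentile of 84.6. At 54 kb, chr11:24131713-24132679, the values were 8.45 at the lowest, 10.6 at the median and 13.8 at the highest, with a mean of 10.6 ± 1.86. The ranges of the OCRs at 61.7 kb and 58.3 kb met between libraries, but the order of the 3 was the same in each library. The OCR at 61.7 kb was above that at 58.3 kb by 0.98 ± 0.23 on the log2 scale, and that at 58.3 kb above that at 54 kb by 1.59 ± 0.18. The promoter was above the OCR at 61.7 kb in 7 of 7 libraries, by 0.47 ± 0.19. The remaining shared OCRs of the interval were at 64.5 kb with 10.2 ± 2.52, at the start of a shorter annotated transcript of Bcl11a, and at 50.0 kb with 4.41 ± 0.558. The other 3, at chr11:24129263-24130511, chr11:24131074-24131588 and chr11:24141584-24142137, were found in between 1 and 5 libraries with an intensity of 5.39 at most.

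Elsewhere in the gene body, the OCR at 80.2 kb, chr11:24157276-24158672, had 27.1 ± 5.92. Beyond the 3' end, OCRs at 136.9 kb (chr11:24213852-24215350), 148.9 kb (chr11:24226416-24227516) and 107.1 kb (chr11:24184495-24186132) had 45.7 ± 8.20, 39.0 ± 9.41 and 29.3 ± 7.88, of which the first lies in a noncoding gene, Gm12066, and the others lie between genes. At the edges, chr11:24049152-24049953 had 17.1 ± 3.80, chr11:24231493-24232017 had 9.08 ± 2.79, and chr11:24052864-24053219 was found in 3 libraries at 3.02 ± 0.538.

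**Figure D3:**
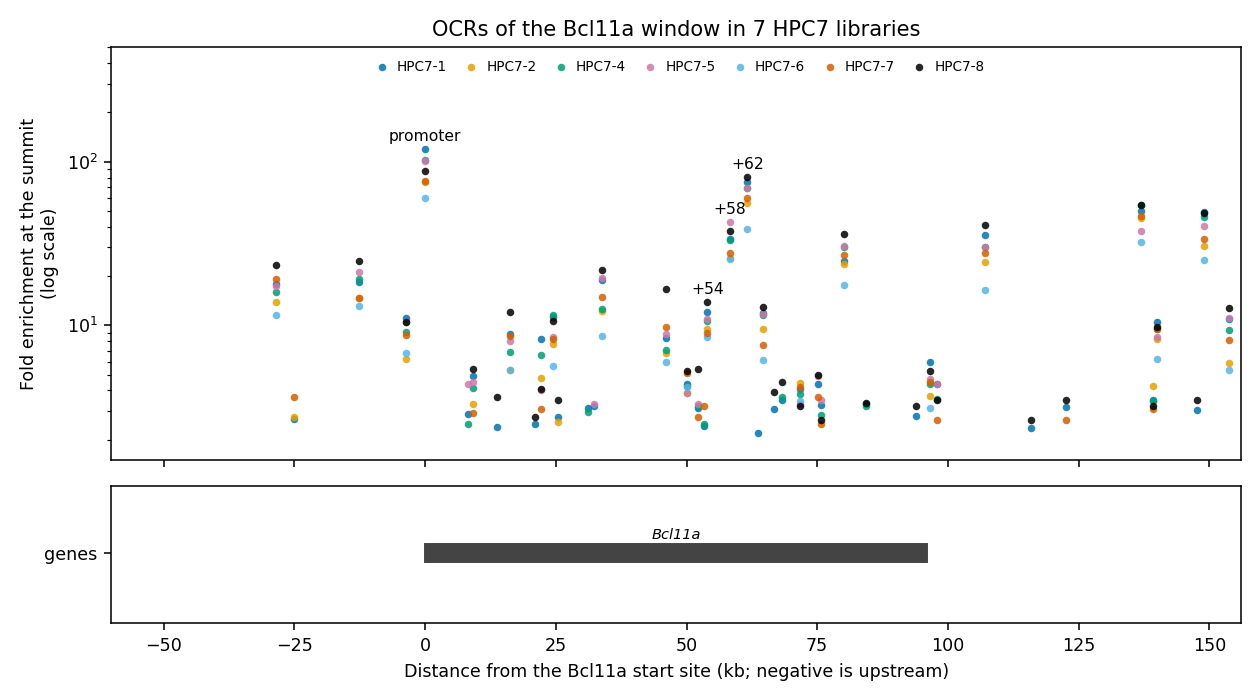
Intensity of every OCR in the Bcl11a window (upper panel, log scale, 1 point per library and OCR) by the distance of the median summit from the Bcl11a start in kb. The gene is below, and RefSeq annotates no DNase I site here. The promoter and the intronic OCRs labelled +58 and +62 stand above the other OCRs of the gene body, and OCRs of similar height lie beyond the 3' end.

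The 34 OCRs of the windows that were missing in at least 1 library had an intensity of 8.28 and a percentile of 65.0 at most, and 23 of them were at Bcl11a, where the lists held between 23 and 46 peaks. HPC7-1, the library with the most peaks, had the 46.

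Per 100 kb, the libraries held 16.1 ± 1.06 peaks in the alpha window, 3.02 ± 0.560 in the beta window and 16.0 ± 3.71 in the Bcl11a window (SD, n = 7), and 4.02 ± 0.646 on chromosomes 1 to 19 and X. The value for the chromosomes is over their whole length, stretches far from genes included, whereas the windows are centred on genes. Windows around other genes were not measured, so an excess is not shown to be particular to these loci. Alpha-globin and Bcl11a were above the chromosomes in 7 of 7 libraries, by 12.1 ± 0.785 and 12 ± 3.08 peaks, and beta-globin was below in 7 of 7, by 1.00 ± 0.803. Alpha-globin and Bcl11a were above beta-globin by 13.1 ± 1.44 and 13.0 ± 3.71. Each of these 5 differences had p = 0.0156, the smallest that 7 libraries allow, in the exact sign-flip permutation test over libraries (two-sided), and an adjusted p of 0.0188 over 6 comparisons. Alpha-globin and Bcl11a differed by 0.121 ± 2.99 (exact permutation p = 0.891), with alpha-globin higher in 3 of 7 libraries. That comparison depended on the size of the window, and with 30 kb on either side alpha-globin minus Bcl11a was -6.59 ± 4.14 peaks per 100 kb (exact permutation test, adjusted p = 0.0156), whereas with lists cut to equal length it was 3.06 ± 0.88, with the same adjusted p. The beta window held only 4 to 6 peaks in a library, so 1 peak more or less weighs heavily there. These p-values measure whether a difference recurs over libraries of 1 cell line, and not whether a window departs from other windows.

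The 4 OCRs of the beta-globin window found in all 7 libraries had a lower median percentile than those of the other windows. They were 5'HS2, 3'HS1, HS-60.7 and HS-62.5, and HS-60.7 and HS-62.5 fall outside with 30 kb on either side. The tests below ask whether a difference recurs over libraries of 1 cell line, at the same regions. They do not ask whether a window departs from other windows of the genome. The median percentile within a library was 37.0 ± 8.83 at beta-globin, 60.6 ± 7.73 at alpha-globin, 66.4 ± 5.94 at Bcl11a and 66.4 ± 5.53 over all 66979 shared OCRs. Beta-globin was below all shared OCRs in 7 of 7 libraries, by 29.3 ± 6.49 percentile points, and alpha-globin in 7 of 7, by 5.75 ± 2.89 (exact sign-flip permutation test, two-sided, n = 7, adjusted p = 0.0234 for both). Alpha-globin was above beta-globin by 23.6 ± 6.64 and Bcl11a above beta-globin by 29.4 ± 5.43, with the same adjusted p. Alpha-globin was below Bcl11a by 5.75 ± 3.91 in 6 of 7 libraries and tied in HPC7-7 (exact permutation test, adjusted p = 0.0375), a call that was lost without HPC7-1, HPC7-4, HPC7-5 or HPC7-8 (adjusted p = 0.0750 each) and with 100 kb on either side (difference -2.79, adjusted p = 0.15). With 30 kb on either side, alpha-globin and beta-globin differed by 2.94 ± 5.24 (exact permutation test, adjusted p = 0.188), and beta-globin minus all shared OCRs was -9.81 and beta-globin minus Bcl11a -9.82. With lists of equal length, alpha-globin minus all shared OCRs was -10.5 and alpha-globin minus Bcl11a -10.6. With 100 kb on either side, alpha-globin minus all shared OCRs was -3.80 (exact permutation test, adjusted p = 0.0469). Bcl11a and all shared OCRs differed by 0.00277 ± 2.29 (exact permutation p = 1), and by 3.13 ± 2.57 with a -log10 q of at least 5 (adjusted p = 0.0469). A median percentile of at least 75 was reached by 6 of the 17 shared OCRs at alpha-globin, 1 of 4 at beta-globin and 8 of 21 at Bcl11a, and by 37.3% of all shared OCRs.

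**Figure D4:**
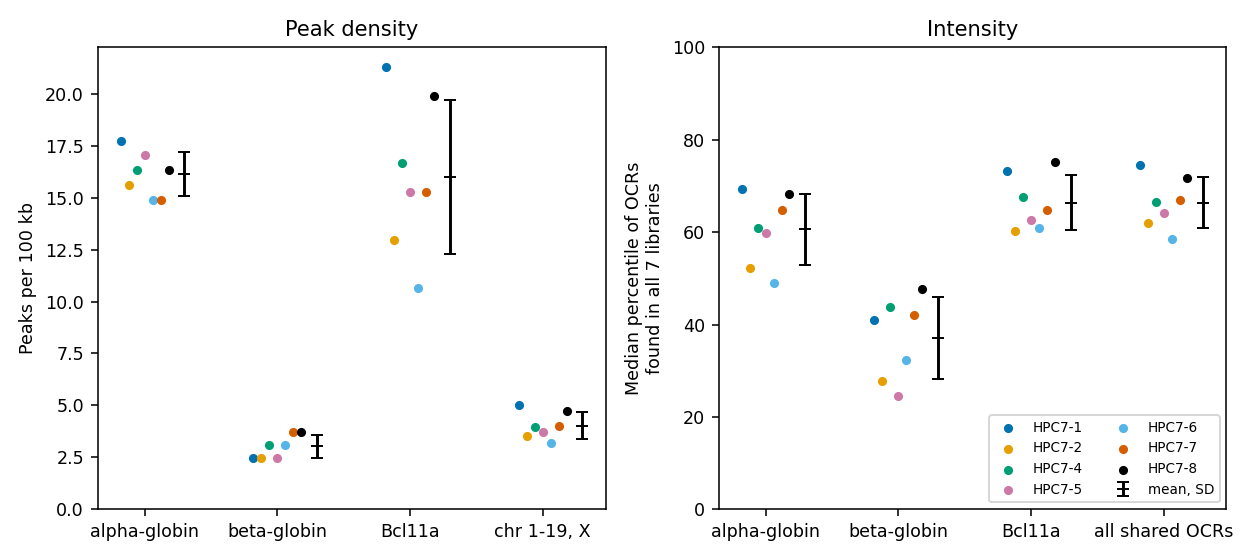
Peaks per 100 kb (left) and median percentile of OCRs found in all 7 libraries (right) for the 3 windows and the whole set, 1 point per library, with the mean and SD beside them. The beta-globin window lies lowest in both panels, at a mean of 3.02 peaks and a percentile of 37.0.

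Ordered by mean log2 intensity, the 42 shared OCRs of the windows gave 39 pairs of neighbours. The pairs were formed by the values themselves, so no test of them is given. The order was the same in 7 of 7 libraries for 11 pairs. These included the Nprl3 promoter above the Mpg promoter, the Mpg promoter above Rm, 5'HS2 above 3'HS1, the Bcl11a promoter above the OCR at 61.7 kb, and the latter above that at 136.9 kb. Rm and the Rhbdf1 promoter differed by 0.07 ± 0.31, 3'HS1 and HS-62.5 by 0.04 ± 0.17, and HS-62.5 and HS-60.7 by 0.14 ± 0.42, all within their spread. Across the windows, 5'HS2 was above R1 in 7 of 7 libraries by 1.85 ± 0.14 and above R2 by 1.65 ± 0.35, and below Rm by 0.92 ± 0.25 and the Bcl11a OCR at 61.7 kb by 1.74 ± 0.21. Rm and the Bcl11a OCR at 58.3 kb differed by 0.16 ± 0.15, with Rm higher in 6 of 7. These cross-window pairs were chosen after their values were seen and were given no test.

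**Figure D5:**
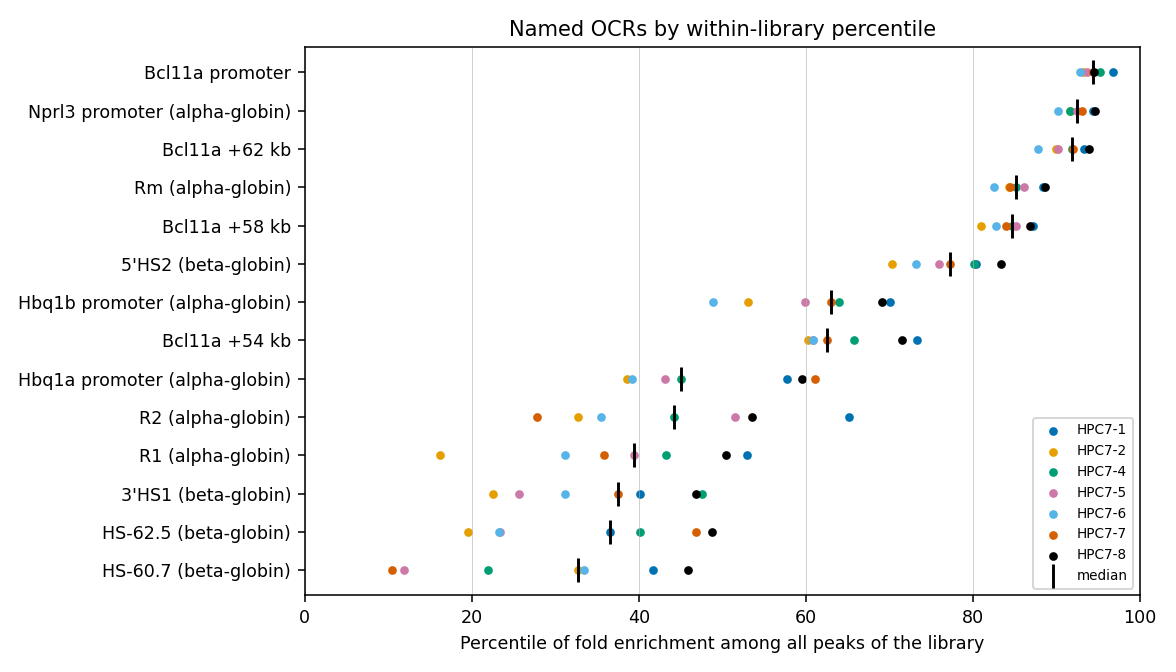
Percentile of intensity among all peaks of the library for 14 named OCRs (rows, ordered by the median), 1 point per library and a bar at the median. The Bcl11a promoter, the Nprl3 promoter, Rm and the Bcl11a OCRs labelled +58 and +62 lie above 80 in every library, and R1, 3'HS1, HS-62.5 and HS-60.7 spread from 10.4 to 52.9.

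Motifs were searched on both strands within 150 bp of the median summit. AGATAA, bound by GATA factors, was found at 10 of the 42 shared OCRs and at 19.4% of all shared OCRs, and TGACTCA, bound by NF-E2 and AP-1, at 3 of 42 against 11.0%. The 3 were 5'HS2 with 2 matches, R2 and Rm, and AGATAA was found at R2 and Rm as well. The E-box CAGCTG was found at 9 against 20.1%, TGTGGT, bound by RUNX factors, at 15 against 33.2%, CAGGAAGT, bound by ETS factors, at 5 against 7.77%, and CCACACCC, bound by KLF1 and its relatives, at 3 against 3.53%. Those 3 were all at Bcl11a, and the OCR at 58.3 kb held CCACACCC with AGATAA and 2 matches to TGTGGT. The CTCF core consensus was found at 3'HS1 alone of the 42, against 6.42%. It does not match the annotated CTCF site of HS-62.5, so OCRs without a match can still hold a CTCF site. Of the 7 member promoters in the RefSeq table, Hbb-bs held the GATA, the NF-E2 and the KLF motif, which 11.2%, 5.2% and 3.56% of 32851 promoters hold. The others held none of these exact letters, which does not show that they lack binding sites. The annotated GATA-1 site of 5'HS2, AGATAG, is likewise missed by the search for AGATAA. Some motif letters overlap annotated binding sites, as at 5'HS2 and R2, and a match says only that these letters are in the window.

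Other genes of the globin pathway were read at their promoters. Of 19 regulators of globin genes, 18 had a peak within 1 kb of a start in all 7 libraries, with a median percentile between 71.1 and 99.7, and Nr2f2, an orphan nuclear receptor gene, had none. Among all protein-coding genes these shares were 55.9% in all 7 libraries and 38.2% in none, against 94.7% and 1 gene of the 19 here. Nfe2, which encodes the larger subunit of NF-E2, had an intensity of 230.2 ± 40.7, Klf1, the erythroid activator of the adult beta genes, 140.3 ± 27.2, Zfpm1, the GATA1 cofactor, 186.2 ± 23.1, Zbtb7a, another repressor of fetal globin, 143.3 ± 17.6, Sox6 43.8 ± 10.1 and Gata1 17.1 ± 4.17. Of 7 other globin genes, Hbq1a and Hbq1b had a promoter peak and Hbb-bh2, Hbb-bh3, Mb, Cygb and Ngb had none. Of 6 genes beside the alpha cluster, 5 had one, and Sh3pxd2b had none. Of 13 measured genes of late red cell development, 8 had a promoter peak in all 7 libraries (61.5%, against 55.9% of all protein-coding genes), among them Epor, the erythropoietin receptor gene, at 116.9 ± 21.4. Their median percentiles ran from 39.4 to 97.6, and Epb42, Ermap and Rhag were at the low end, with an intensity of 5.70 ± 2.04, 5.61 ± 1.56 and 6.11 ± 1.03. Alas2, the erythroid enzyme of heme synthesis, and Kel had one in 3 libraries each, Trim10 in 5 and Tspo2 in 6, and Slc4a1, the band 3 anion exchanger, in none.

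The label of the cells was checked on markers in the same way. All 10 progenitor genes, Kit, Cd34 and Runx1 among them, had a promoter peak in all 7 libraries. Of all protein-coding genes, 55.9% had such a peak in all 7 libraries and 38.2% in none. Of the lymphoid genes Rag1 had one, at 6.26 ± 1.06, and Cd3e, Cd79a, Pax5 and Ebf1 had none in any library. Of 6 genes of non-hematopoietic tissues Pax6 had one, at 114.2 ± 25.2, and Alb, Ins2, Myod1, Krt5 and Neurod1 had none.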

How the data were processed

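The deposited files are narrowPeak lists, 1 for each of 7 ATAC-seq libraries of HPC7. According to the methods of the study and the submitters' processing notes, reads were trimmed (Cutadapt) and mapped to mm10 (BWA-mem), and MACS2 was run on every library on its own. Versions, options and the handling of reads with several places are not given in the sources used here. A deposited row holds the summit's fold enrichment (a ratio), its -log10 of p, its -log10 of q, a score made from the latter, and its offset. The methods of the study describe no normalization between libraries. Every fold enrichment was a whole multiple of its library's step (100% at a tolerance of 0.05 of a step), which gave the reads at a summit and the background.

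Genes came from GENCODE M21, and sequences, DNase I sites and binding sites from the GRCm38 genome and RefSeq. Values were compared over 7 libraries with an exact sign-flip permutation test (128 patterns, two-sided), adjusted by Benjamini-Hochberg over 6 comparisons. A planned test between OCRs neighbouring in intensity is not reported, since the values tested also formed the pairs. Uniqueness was the share of 50-base sequences found once on either strand of chromosomes 1 to 19, X and Y. Named were, per window, the 5 shared OCRs highest in mean fold enrichment, OCRs at member promoters, at the positions of R1, R2, R3, Rm and R4, in the control region of the beta cluster and the intronic interval of Bcl11a, and the 2 nearest each edge. RefSeq sites, the theta-globin OCRs and the comparisons across windows were added after their values were seen. The members and gene lists were chosen with earlier results of these data known. One symbol of the late erythroid list was not found in the annotation. Some genes of the fixed lists are not reported here. The alternatives tried were peaks with -log10 q of 5 or more, equal list lengths, flanks of 30 and 100 kb, merging by summits within 150 bp, promoters of 500 bp and 3 kb or the gene's 5' end, and each library left out. Interval, percentile, motif and permutation functions were tested on simulated data. The tools were scipy 1.17.1, numpy 2.4.6, pandas 2.3.3, biopython 1.88 and matplotlib 3.10.9 under Python 3.11.15.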

Additional observations from a re-analysis of the deposited data

How the results depend on the processing

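All density and percentile differences past an adjusted p of 0.05 kept their direction and stayed past it with a -log10 q of at least 5, lists of equal length, both other flanks and each library left out, except those named here. Merging by summits was run for the numbers of OCRs alone. Between alpha-globin and Bcl11a the difference in peaks per 100 kb was 3.06 with the same 84593 peaks from each library and -6.59 with a flank of 30 kb, both past the threshold. It was 0.121 with the settings of the report, -1.09 with a flank of 100 kb and from -0.57 to 0.74 when 1 library was left out, below 0 without HPC7-2, HPC7-5 or HPC7-6, none of them past it. The difference in median percentile between alpha-globin and Bcl11a was -2.79 with a flank of 100 kb, no longer past it, and ranged from -7.08 to -5.54 when 1 library was left out, with an adjusted p of 0.0750 without HPC7-1, HPC7-4, HPC7-5 or HPC7-8. It was -11.8 with a -log10 q of at least 5 and -10.6 with lists of equal length. Between alpha-globin and beta-globin it was 2.94 with a flank of 30 kb, no longer past it. Between Bcl11a and all shared OCRs it was 3.13 with a -log10 q of at least 5, then past it, and -1.01 with a flank of 100 kb and -0.58 without HPC7-8, not past it. With a flank of 30 kb, beta-globin minus all shared OCRs was -9.81 and beta-globin minus Bcl11a -9.82, and alpha-globin minus all shared OCRs was -10.5 with lists of equal length, -8.64 with a -log10 q of at least 5 and -3.80 with a flank of 100 kb, all past it. The density of beta-globin minus that of the genome was -1.59 with a flank of 100 kb. Counting 3 kb on either side of a start gave 2 members with a promoter OCR in all 7 libraries and 1 globin gene with a peak in any, where 1 kb gave 1 and 0. The causes were not tested, apart from the wider interval itself. The numbers of OCRs stayed within 1.5 times, and 13 of the 14 named OCRs had a peak in all 7 libraries both at a -log10 q of at least 5 and with lists of equal length. The exception, HS-60.7, had one in 6 and in 5 libraries, so that 3 OCRs of the beta window were then shared by all 7. With 6 libraries the smallest p is 0.0312. The tests pair values within each library. The labels place all libraries in 1 group, so no pairing of samples between groups was used. The prefixes of the peak names were not used to split the libraries.
The depth of the lists limits what absence means: a region under 12 to 35 reads at the summit is not listed, and fold enrichment has no local background.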
